A study of Mus musculus with 12 samples.

Results

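The mRNAs described here encode 10 proteins that coat lipid droplets or that build, hold and break down the triglyceride inside them: Plin2, Plin4, Plin5, Cidec, Cideb, Pnpla2, G0s2, Mgll, Pnpla3 and Dgat2. They were chosen by gene symbol from a table of 20069 genes, and each of the 10 was found in 1 row. For 3 of them the row carries an older symbol: Adfp for Plin2, S3-12 for Plin4 and 2310076L09Rik for Plin5. Polyadenylated RNA was measured by RNA-Seq in 12 livers of wild-type C57BL/6 male mice, aged 3 to 6 months and kept in 12 hr of light and 12 hr of darkness. Livers came from 6 zeitgeber times, every 4 hr from ZT2 to ZT22, with light coming on at ZT0. They were collected as 2 series, so every time point had 2 livers (n = 2). All mice were of this single genotype and lighting schedule, and no treated or mutant group enters the values below.

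Hepatocytes store fatty acids as triglyceride in droplets that are wrapped in a phospholipid layer and in perilipin (Plin) proteins. Dgat2 catalyzes the last step of triglyceride synthesis, CIDE proteins such as Cidec and Cideb enlarge droplets or pass their lipid on to very low density lipoprotein (VLDL), and Pnpla2 (also called ATGL) makes the initial cut of lipolysis. G0s2 is a protein inhibitor of Pnpla2, and Mgll removes the last fatty acid from the glycerol backbone. In the liver of a mouse, droplet content follows feeding and fasting, which alternate with the night and the day.

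Gene signals are given in reads per base pair (rpbp), the coverage over a gene's exons divided by their length, on a scale of 40000000 uniquely mapped sequences per library. Because rpbp is divided by length, levels of different genes can be set side by side. A gene was taken as expressed if at least 1 of its 12 values was above 8 rpbp, which 10198 genes met. F24 is the share, from 0 to 1, of the variance of a gene's 12 values that follows a 24 hr cosine, and the amplitude is the ratio of the highest to the lowest of them. Rhythmic genes were those with a permutation p under 0.05, F24 above 0.45 and an amplitude above 1.5. By this rule 1948 expressed genes, or 19.1%, were rhythmic.

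The libraries showed liver and its clock. Albumin reached a median of 106095 rpbp, and the clock genes Arntl and Per2 had F24 values of 0.91 and 0.88. Both ZT2 livers stood apart from the other 10. Their summed signal over 6 hepatocyte markers was 90523 and 93377 rpbp, against 133728 to 171683 rpbp elsewhere, while the sum over 7 Kupffer cell markers was 580.3 and 583.2 rpbp, against 279.5 to 463.8 rpbp. The hepatocyte sum is mostly Alb, at 50445 and 53126 rpbp in the ZT2 livers against 93174 rpbp or more elsewhere, and the markers did not move together, since Apoa1 and Serpina1a were at their highest in the ZT2 livers. In whole liver, fewer cells of a type and less RNA per cell cannot be told apart. The part of these shifts in the results below was not tested by an adjustment. Without both ZT2 livers the same 3 members were called rhythmic as with them.

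The regions upstream of 4 members are shown because they belong to members called rhythmic (Plin5, Pnpla2) or hold letters that clock factors are known to bind (Plin2, Mgll). Promoters were matched by symbol in the RefSeq table on GRCm38.p6, which held 12 entries for 9 of the 10 members and none for Dgat2. The 250 bases before the annotated start are printed 5′ to 3′ on the strand of the gene, and capitals mark matches, on either strand, to the E-box CACGTG, the D-box TTANGTAA, the ROR element core TAGGTCA, the forkhead letters TGTTTAC and the nuclear receptor core AGGTCA. The last is contained in the ROR element core, so the 2 overlap. On GRCm38.p6 the stretches are chr4:86670060-86670309 (minus strand) for Plin2, chr17:56117549-56117798 (minus strand) for the first of 2 Plin5 entries, chr7:141454938-141455187 (plus strand) for Pnpla2 and chr6:88724162-88724411 (plus strand) for the first of 2 Mgll entries.
Plin2: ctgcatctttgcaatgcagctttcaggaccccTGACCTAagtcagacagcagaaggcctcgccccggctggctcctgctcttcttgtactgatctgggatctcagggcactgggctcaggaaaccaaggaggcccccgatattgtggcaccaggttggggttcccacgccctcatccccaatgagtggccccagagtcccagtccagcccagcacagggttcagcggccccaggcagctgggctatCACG
Plin5: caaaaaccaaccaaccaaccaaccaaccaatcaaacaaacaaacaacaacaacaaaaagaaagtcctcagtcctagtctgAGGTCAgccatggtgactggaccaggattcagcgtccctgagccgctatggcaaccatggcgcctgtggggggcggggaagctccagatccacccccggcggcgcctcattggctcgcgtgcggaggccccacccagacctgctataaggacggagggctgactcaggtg
Pnpla2: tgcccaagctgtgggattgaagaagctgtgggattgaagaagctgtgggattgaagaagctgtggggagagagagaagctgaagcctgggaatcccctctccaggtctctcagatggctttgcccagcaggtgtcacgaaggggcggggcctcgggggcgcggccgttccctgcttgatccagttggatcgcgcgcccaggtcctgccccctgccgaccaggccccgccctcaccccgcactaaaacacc
Mgll: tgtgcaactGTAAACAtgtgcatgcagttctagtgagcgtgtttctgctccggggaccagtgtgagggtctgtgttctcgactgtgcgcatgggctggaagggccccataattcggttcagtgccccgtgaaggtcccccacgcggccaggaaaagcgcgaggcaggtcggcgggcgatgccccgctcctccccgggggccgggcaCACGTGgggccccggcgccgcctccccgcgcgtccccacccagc

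Searched over 300 bases, of which the last 50 follow the start, the E-box was found in the promoters of Plin2 and Mgll. That of Plin2 begins 4 bases before the start and ends at base 2 of the transcript, so its last letters lie past the stretch printed. That of Mgll lies 44 to 39 bases before the start of its first entry. Of all 32851 promoters in the table, 7.15% hold an E-box. The ROR element core stands 218 to 212 bases before the Plin2 start and is present in 2.61% of promoters. The forkhead letters stand 241 to 235 bases before the Mgll start, against 3.65% of promoters, and the nuclear receptor core 170 to 165 bases before the Plin5 start, against 16.3%. The other Plin5 entry holds that core at bases 14 to 19 of the transcript. No match to any of the 5 motifs was found in the second Mgll entry or in the promoter entries of Plin4, Cidec, Cideb, Pnpla2, G0s2 or Pnpla3. No member promoter held the D-box, present in 2.32% of all promoters. The presence or absence of letters in these windows is a description of sequence, and binding was not measured here.

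Of the 10 members 3 were called rhythmic, Plin5, Pnpla2 and Dgat2, which is 30.0% against 19.1% of all expressed genes. The mean of both livers was highest in the dark at ZT18 for Plin5, in the light at ZT6 for Pnpla2, and at ZT10 for Dgat2. For Plin5 this rests on series 1, and in series 2 its highest liver was ZT10. With p-values adjusted over all expressed genes (Benjamini-Hochberg), Plin5 alone passed, among 4.81% of expressed genes that did. With the stricter minimums of the study for strong rhythms, which raise both F24 and the amplitude, Plin5 and Dgat2 remained, against 7.89% of expressed genes. The limma cosine test, adjusted over all expressed genes, called the same 3 members, against 9.22% of expressed genes. With the series number as a block, Dgat2 was no longer called (limma adjusted p = 0.0512). Of the other 7 members, 6 had an amplitude above 1.5 without being called, as did 45.2% of expressed genes. For Plin4, Cidec and Pnpla3 a high amplitude goes with having passed the minimum through 1 or 2 high livers. Of the 7 members above the minimum in all livers, 3 had such an amplitude and were not called, against 36.7% of genes of that kind. Cideb was the steadiest, with an amplitude of 1.33.

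**Figure D1:**
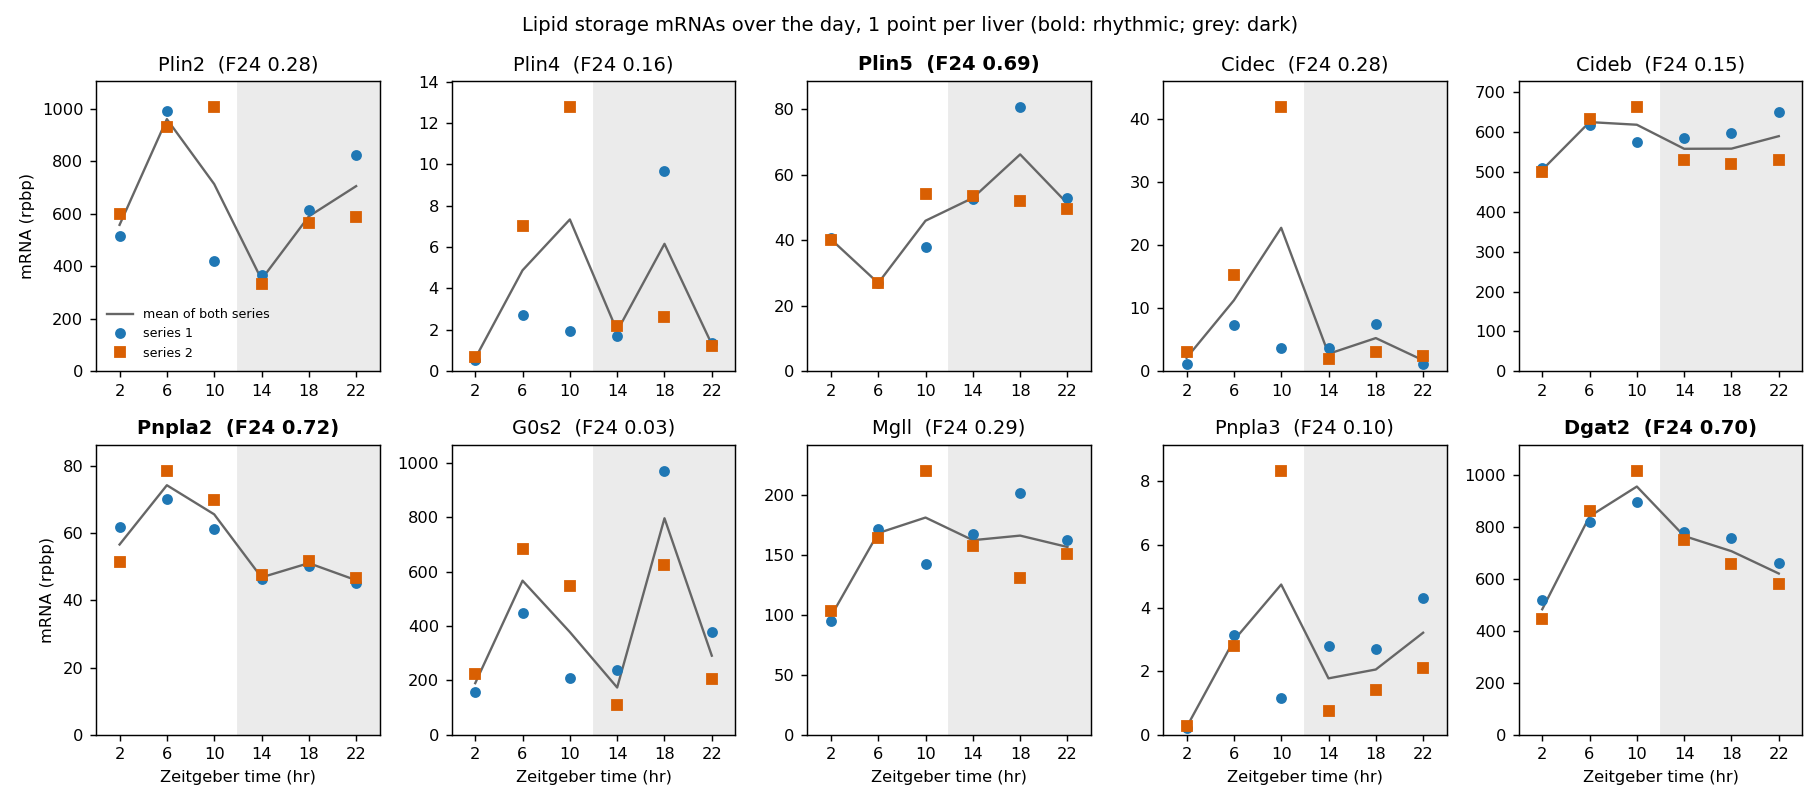
Signal of each member (rpbp) against zeitgeber time, with 1 point per liver (circles for series 1, squares for series 2), the mean of both livers as a line, and darkness in grey. Plin5, Pnpla2 and Dgat2 (bold titles) were called rhythmic, while the 2 livers of ZT10 lie far apart for Plin2, Plin4, Cidec, Pnpla3 and G0s2.

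Among the coat proteins, Plin2 was the most abundant, with a mean of 646 rpbp ± 237 (SD, n = 12), which placed it in the 97.5th percentile of expressed genes. Plin2 is the main perilipin of hepatocyte droplets and lies on mm9 at chr4:86294290-86315964 (minus strand). In series 1, Plin2 measured 514.4 rpbp at ZT2, 990.0 at ZT6, 420.6 at ZT10, 365.4 at ZT14, 614.2 at ZT18 and 823.8 at ZT22. In series 2, the values were 599.9, 929.9, 1004.6, 333.6, 564.9 and 585.7 rpbp at the same times. Both ZT6 livers were among the 3 highest and both ZT14 livers were the lowest, and the ZT10 pair differed by 2.39-fold. The mean was 960 rpbp ± 42.5 at ZT6 and 349 rpbp ± 22.5 at ZT14 (SD, n = 2). Its F24 was 0.28 (permutation p = 0.225), so Plin2 was not called rhythmic. Without both ZT2 livers F24 of Plin2 was 0.58 (permutation p = 0.0616), still not called. Over the 6 time points as a factor, limma gave an adjusted p of 0.0860 for Plin2. Without the ZT10 liver of series 1 that value was 0.00413, and without the ZT10 liver of series 2 it was 0.00527. Either omission also removes the spread of that pair, and the remaining liver is assumed to vary as the other pairs do. The other 10 omissions gave 0.0871 to 0.235, so Plin2 was not called.

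Plin5, a perilipin that holds droplets against mitochondria in tissues that burn fat, was less abundant per length than Plin2, with a mean of 47.2 rpbp ± 14.4 (SD, n = 12). It lies at chr17:56251024-56257019 (minus strand, mm9). In series 1, Plin5 measured 40.5 rpbp at ZT2, 26.9 at ZT6, 37.8 at ZT10, 52.4 at ZT14, 80.5 at ZT18 and 52.7 at ZT22. The series 2 livers measured 40.04, 26.9, 54.0, 53.3, 51.8 and 49.6 rpbp. The pairs of ZT2, ZT6, ZT14 and ZT22 agreed within 1.06-fold, and both ZT6 livers were below all others. The ZT18 pair differed by 1.55-fold. F24 was 0.69 (permutation p = 0.0012, adjusted p = 0.0335), with a phase of 17.5 hr and an amplitude of 2.99. The limma cosine fit on log2(rpbp + 1) gave a peak 2.02-fold above the trough, a log2 difference of 1.02 ± 0.19 (SE, limma adjusted p = 0.0147). Leaving out each of the 12 libraries in turn gave F24 between 0.63 and 0.78, and the permutation p did not exceed 0.0102.

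The 2 more abundant perilipins of the 10 genes were set against each other within each liver. The ratio of Plin2 to Plin5 was 36.8 and 34.6 in the ZT6 livers of series 1 and 2, and 6.97 and 6.26 in the ZT14 livers. All other livers lay between 7.63 and 18.6. The ratio is a description of the 12 livers and was not tested.

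Plin4, a coat protein known mainly from adipocytes, neighbors Plin5 at chr17:56240014-56249225 (minus strand, mm9) and was low, with a mean of 3.71 rpbp ± 3.94 (SD, n = 12). It passed the expression minimum through 2 livers only. In series 1 it measured 0.56 rpbp at ZT2, 2.72 at ZT6, 1.92 at ZT10, 1.68 at ZT14, 9.68 at ZT18 and 1.36 at ZT22. The series 2 livers measured 0.68, 7.04, 12.8, 2.20, 2.64 and 1.24 rpbp. The livers above 8 rpbp were thus ZT18 of series 1 and ZT10 of series 2, and the other liver of each of those times was at 2.64 rpbp or below. F24 was 0.16 (permutation p = 0.478). The annotated ends of Plin4 and of Hdgfrp2 on the other strand share 6 bases, or 0.104% of the Plin4 exon bases, and reads were assigned without strand.

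Cidec and Cideb, which belong to the same protein family, differed in both level and constancy. Cideb, the family member of hepatocytes that takes part in loading VLDL with lipid, had a mean of 576 rpbp ± 57.1 (SD, n = 12). Its lowest liver was ZT2 of series 2 (500 rpbp), its median 581 rpbp and its highest ZT10 of series 2 (662 rpbp). The coefficient of variation of Cideb was 9.91%, below that of the median expressed gene (14.9%), and F24 was 0.15 (permutation p = 0.473). Cideb lies at chr14:56372882-56377295 (minus strand, mm9) and shares 20 bases at its 3′ end with 2610027L16Rik, which is 1.34% of its exon bases.

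Cidec, which fuses droplets into larger ones and is best known from adipocytes and fatty liver, had a mean of 7.62 rpbp ± 11.5 (SD, n = 12) and lies at chr6:113374628-113385754 (minus strand, mm9). In series 1, Cidec measured 1.16 rpbp at ZT2, 7.24 at ZT6, 3.64 at ZT10, 3.60 at ZT14, 7.40 at ZT18 and 1.1 at ZT22. The series 2 values were 3.04, 15.2, 41.8, 1.88, 3.08 and 2.36 rpbp. The ZT10 liver of series 2 was 11.5 times higher than its series 1 counterpart, and only this liver and ZT6 of series 2 passed 8 rpbp. The amplitude of 38.7 was the second highest of the members after Pnpla3, but F24 was 0.28 (permutation p = 0.132). The limma cosine fit gave a log2 difference of 2.07 ± 0.80 (SE, adjusted p = 0.213), and 1.24 without the ZT10 liver of series 2.

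Pnpla2, the lipase that starts triglyceride breakdown, was rhythmic with a peak in the middle of the light phase. It lies at chr7:148641097-148646642 (plus strand, mm9), and Efcab4a begins 351 bases past its end. In series 1, Pnpla2 measured 61.9 rpbp at ZT2, 70.0 at ZT6, 61.4 at ZT10, 46.3 at ZT14, 50.3 at ZT18 and 45.2 at ZT22. In series 2, it measured 51.4, 78.5, 69.8, 47.4, 51.8 and 46.8 rpbp. Each of the 4 livers of ZT6 and ZT10 was above each of the 6 livers taken in the dark. The mean at ZT6 was 74.3 rpbp ± 5.97, and that at ZT22 was 46.0 rpbp ± 1.13 (SD, n = 2). F24 was 0.72 (permutation p = 0.0049, adjusted p = 0.0634), with a phase of 6.84 hr and an amplitude of 1.74. The limma fit placed the peak 1.54-fold above the trough, a log2 difference of 0.62 ± 0.13 (SE, limma adjusted p = 0.0235). That adjusted p was between 0.0202 and 0.0664 with each library left out, and it passed 0.05 without ZT6 of series 1 (0.0538), ZT6 of series 2 (0.0664), ZT10 of series 2 (0.0543) or ZT22 of series 2 (0.0535).

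G0s2, the inhibitor of Pnpla2, lies at chr1:195098355-195099382 (minus strand, mm9), and its mean was highest at ZT18 (796 rpbp ± 245) and next at ZT6 (566 rpbp ± 166; SD, n = 2). In series 1, G0s2 measured 158 rpbp at ZT2, 449 at ZT6, 208 at ZT10, 238 at ZT14, 969 at ZT18 and 378 at ZT22. The series 2 values were 222, 684, 547, 109, 622 and 203 rpbp. In both series ZT6 and ZT18 were the 2 highest times, and no liver of ZT2, ZT14 or ZT22 reached any liver of ZT6 or ZT18. F24 was 0.03 (permutation p = 0.871). The share of variance at 12 hr, F12, was 0.69 (permutation p = 0.0064), the largest among the 10 members. After adjustment over all expressed genes the F12 p was 0.329. No gene passed that adjustment (0.0% of 10198), although 1167 genes had an unadjusted permutation p under 0.05. With samples every 4 hr, a 12 hr cycle rests on 3 times. F12 of G0s2 was between 0.65 and 0.79 with each library left out.

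Over the 6 time points as a factor, 4 members passed an adjusted p of 0.05 in limma, Dgat2, Pnpla2, Plin5 and G0s2, against 20.4% of expressed genes. G0s2 did so by a narrow margin (limma adjusted p = 0.0495). With each library left out its adjusted p was between 0.0253 and 0.122, and 8 of the 12 omissions took it past 0.05: ZT2, ZT6 and ZT18 of series 1 (0.120, 0.0845 and 0.122) and ZT2, ZT6, ZT14, ZT18 and ZT22 of series 2 (0.0967, 0.105, 0.0872, 0.0794 and 0.0540). With the series number as a block it was 0.0771. Plin5 had an adjusted p of 0.0199 in this fit, which passed 0.05 without either ZT2 liver (0.0530 and 0.0508 for series 1 and 2) or either ZT6 liver (0.0882 in both cases). Pnpla2 (0.0117) reached 0.0504 without ZT6 of series 2, and Dgat2 (0.00490) stayed below 0.05 in all 12. With a library left out, its time point holds 1 liver, whose spread is borrowed from the other pairs, so calls gained in this way are not read as support. Without ZT10 of series 1, Cidec (0.0137), Mgll (0.0360) and Plin2 passed, and 7 members did in all, against 19.0% of expressed genes in that fit. The ZT10 liver that then remains is 1 of the 2 through which Cidec passed the expression minimum. Mgll also passed without ZT18 of series 2 (0.0449), against 16.9% of expressed genes, and Plin2 without ZT10 of series 2, against 17.8%. Without ZT6 of series 2, Dgat2 alone passed, against 11.1%.

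**Figure D2:**
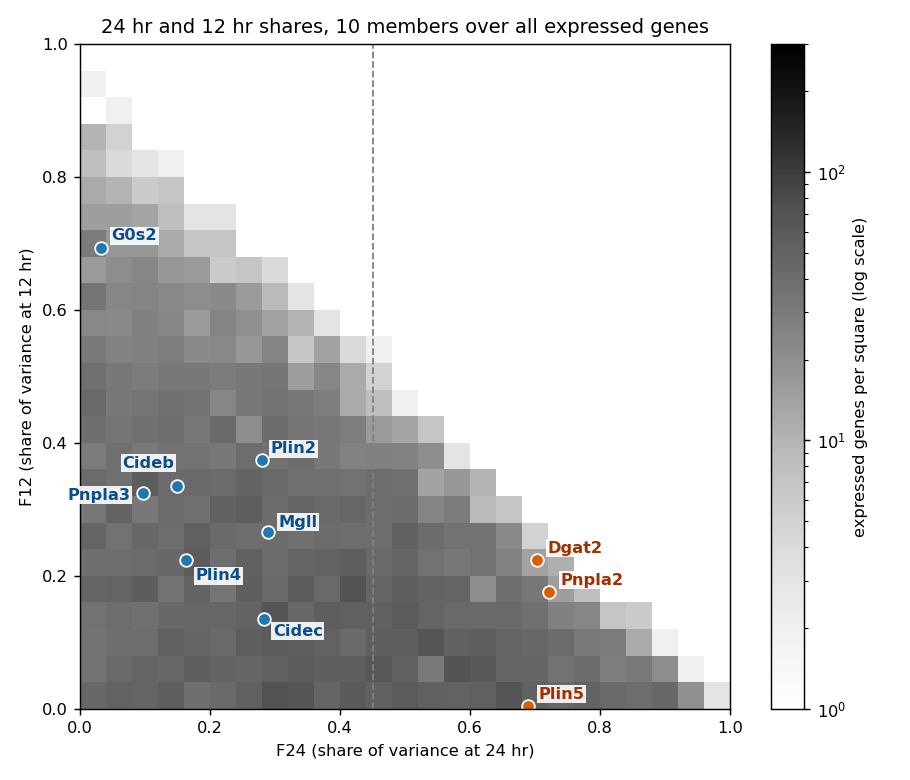
Share of variance at 24 hr (F24, x axis) and at 12 hr (F12, y axis) for the 10 members (points, orange if called rhythmic and blue if not) over all 10198 expressed genes (grey squares, number of genes on a log scale), with the F24 minimum of 0.45 dashed. G0s2 lies at the upper left (F24 0.03, F12 0.69), and Plin5, Pnpla2 and Dgat2 lie to the right of the dashed line.

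The inhibitor and its lipase were compared within each liver. The ratio of G0s2 to Pnpla2 signal was highest in the ZT18 livers, at 19.3 in series 1 and 12.0 in series 2. It was 6.41 and 8.72 at ZT6, when both mRNAs were high, and 8.37 and 4.34 at ZT22. The lowest values were 2.31 at ZT14 of series 2 and 2.55 at ZT2 of series 1. G0s2 mRNA exceeded Pnpla2 mRNA in every liver on the scale of rpbp, with a median ratio of 5.78. The ratio is a description of the 12 livers.

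Mgll, the lipase that acts on monoacylglycerol at the end of the chain, had a mean of 155 rpbp ± 35.7 (SD, n = 12) and lies at chr6:88674406-88778354 (plus strand, mm9). It shares 90 exon bases, 1.85% of its total, with the noncoding Gm16628 on the other strand. In series 1, Mgll measured 94.5 rpbp at ZT2, 172 at ZT6, 142 at ZT10, 167 at ZT14, 201 at ZT18 and 162 at ZT22. In series 2, it measured 103, 164, 220, 157, 130 and 150 rpbp. The 2 ZT2 livers were below all others, and the ZT10 and ZT18 pairs each differed by 1.54-fold, in opposite directions. F24 was 0.29 (permutation p = 0.224) and 0.06 without both ZT2 livers.

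Pnpla3, a droplet protein related to Pnpla2 and known to be induced by feeding, was the lowest of the 10, with a mean of 2.50 rpbp ± 2.22 (SD, n = 12). It lies at chr15:83998246-84019942 (plus strand, mm9). It passed the expression minimum through 1 liver, ZT10 of series 2, at 8.32 rpbp, and its ZT10 counterpart in series 1 was at 1.16 rpbp. The ZT2 livers were at 0.20 and 0.28 rpbp, and the remaining 8 lay between 0.76 and 4.32 rpbp. F24 was 0.10 (permutation p = 0.704).

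Dgat2, the acyltransferase that completes triglyceride, was the most abundant member, with a mean of 728 rpbp ± 164 (SD, n = 12), and lies at chr7:106302173-106331223 (minus strand, mm9). In series 1, Dgat2 measured 519 rpbp at ZT2, 818 at ZT6, 895 at ZT10, 779 at ZT14, 756 at ZT18 and 661 at ZT22. The series 2 values were 447, 863, 1014, 750, 656 and 579 rpbp. In both series the signal climbed from ZT2 to ZT10 and then declined to ZT22, and no pair differed by more than 1.16-fold. F24 was 0.70 (permutation p = 0.0044, adjusted p = 0.0607), with a phase of 10.9 hr and an amplitude of 2.27. The limma fit gave a peak 1.69-fold above the trough, a log2 difference of 0.76 ± 0.17 (SE, limma adjusted p = 0.0350). That adjusted p was between 0.0261 and 0.0955 with each library left out, and it passed 0.05 without ZT2 of series 1 (0.0762), ZT10 of series 1 (0.0791), ZT10 of series 2 (0.0955), ZT18 of series 2 (0.0527) or ZT22 of series 2 (0.0709). Without both ZT10 livers, F24 of Dgat2 was 0.56 (permutation p = 0.064) and the rhythm was no longer called. Without both ZT2 livers it was 0.80 (permutation p = 0.0023), with a phase of 9.32 hr.

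On the scale of rpbp averaged over the 12 livers, the order of the members was Dgat2, Plin2, Cideb, G0s2, Mgll, Pnpla2, Plin5, Cidec, Plin4 and Pnpla3. The means of the leading 3 (728, 646 and 576 rpbp) lay within the SD of Plin2 (237 rpbp). That spread includes change with time of day, and the means alone do not resolve the order of these 3. The same holds for Pnpla2 and Plin5 (56.7 and 47.2 rpbp, with SDs of 11.2 and 14.4), and for Cidec, Plin4 and Pnpla3. G0s2 (399 rpbp, SD 262) lay within its own SD of Plin2, Cideb and Mgll, so its mean does not resolve its place either. Compared within livers, Dgat2 was above Cideb in all but ZT2 of series 2 (447 against 500 rpbp). G0s2 was above Mgll in all but ZT14 of series 2 (109 against 157 rpbp). Cidec was above Pnpla3 in all but ZT22 of series 1, with both genes low. The other pairs named here changed order in more livers. None of these orders was tested. The coefficient of variation was above the median of all expressed genes (14.9%) in 9 of the 10 members, and the median over the members was 33.6%. The 3 members with the highest values, Cidec (150%), Plin4 (106%) and Pnpla3 (88.7%), passed the expression minimum in 2 livers or fewer, where a high liver is what admits the gene.

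For 6 of the 10 members the difference between the livers of a time point was largest at ZT10, while for Plin5 it was largest at ZT18, for Cideb at ZT22, and for Pnpla2 and Dgat2 at ZT2. At ZT10 the series 2 liver was higher for all 10 members, where the median ratio over all expressed genes was 1.01. It was higher by more than 1.5-fold for 6 of them (Plin2, Plin4, Cidec, G0s2, Mgll and Pnpla3), against 5.27% of all expressed genes. Plin4, Cidec and Pnpla3 are tested at all only through 1 or 2 livers above the minimum, which include ZT10 of series 2. Among the 7 members above the minimum in all 12 livers, 3 were higher by more than 1.5-fold, against 2.65% of the 7652 genes of that kind. At ZT18 the order was turned, with 9 of 10 members lower in series 2, where the median ratio over all expressed genes was 1.0. Of these, 6 were lower by more than 1.5-fold (Plin4, Plin5, Cidec, G0s2, Mgll and Pnpla3), against 3.71% of expressed genes. Of the same 7 members, 3 were lower by that much at ZT18, against 1.66% of the 7652 genes. At ZT6, 3 members were higher in series 2 by more than 1.5-fold (Plin4, Cidec and G0s2), against 3.68% of expressed genes. At ZT14, 3 were lower (Cidec, G0s2 and Pnpla3), against 5.32%. At ZT22, Cidec was higher, against 4.57%, while G0s2 and Pnpla3 were lower, against 4.4%. At ZT2, Cidec was higher, against 2.35%. No member was lower by that much at ZT2, ZT6 or ZT10, against 3.13%, 1.81% and 4.13% of expressed genes, and none was higher at ZT14 or ZT18, against 2.71% and 4.31%. Cidec, Plin4 and Pnpla3 make up most of these counts. Of the 7 members above the minimum in all livers, G0s2 alone passed 1.5-fold at ZT6 (higher, against 1.32% of the 7652 genes), at ZT14 (lower, against 2.42%) and at ZT22 (lower, against 2.25%), and none passed it at ZT2. In ZT10 of series 2 the erythrocyte gene Hbb-b1 was also at its highest, 598 rpbp against a median of 170 rpbp, and its part in the members' values was not tested. With n = 2 per time point, these are differences between single livers.

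**Figure D3:**
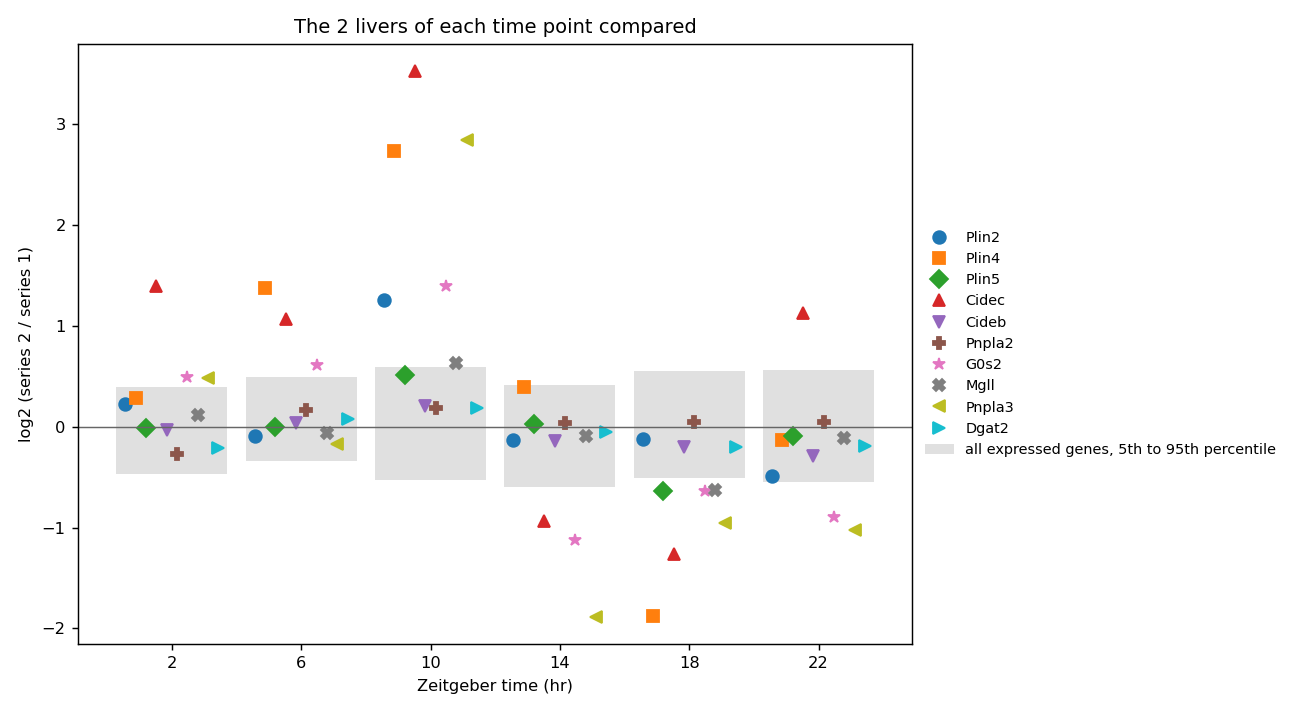
Log2 of the series 2 over the series 1 liver at each zeitgeber time for the 10 members (colored symbols), with the range from the 5th to the 95th percentile of all expressed genes in grey. At ZT10 all 10 symbols lie above 0, with Cidec at 11.5-fold, and at ZT18 all but Pnpla2 lie below 0.

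Cidec and Plin4 each had their 4 highest values in ZT6 of series 1, ZT6 of series 2, ZT10 of series 2 and ZT18 of series 1. Pparg, the nuclear receptor that drives fat storage genes, and Cd36, a fatty acid uptake receptor, had their 4 highest values in these livers too. Both genes were picked out after their values were seen. Pparg measured 24.0 and 27.8 rpbp at ZT6 in series 1 and 2, 40.2 rpbp at ZT10 of series 2 and 25.3 rpbp at ZT18 of series 1. Its ZT10 value in series 1 was 6.24 rpbp, and both ZT14 livers were at 0.20 rpbp or below. Pparg was not called rhythmic (F24 of 0.14, permutation test, adjusted p = 0.676), but passed the limma test over the 6 time points (adjusted p = 0.00763), as did Cd36 (limma adjusted p = 0.0441).

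Adipocyte markers were examined beside these genes because Cidec and Plin4 are also adipocyte transcripts. Of 8 markers named, 7 were in the table, and their sum ranged from 23.7 rpbp at ZT10 of series 1 to 79.6 rpbp at ZT10 of series 2. Of these, 4 markers stayed near 0 in every liver. Adipoq did not exceed 0.40 rpbp, Plin1 0.08 rpbp, Retn 0.88 rpbp and Aqp7 0.20 rpbp. Cfd, a complement protease that adipocytes secrete, which was singled out after its values were seen, measured 24.8 rpbp at ZT6 and 32.7 rpbp at ZT10 in series 2, and 7.72 rpbp at ZT6 and 4.48 rpbp at ZT18 in series 1. In the other 8 livers it did not exceed 0.04 rpbp, so its 4 highest livers are those of Cidec, Plin4, Pparg and Cd36. Retn was above 0 in 3 of these 4 livers and in no other, at values near the floor. Adipoq went otherwise, at 0 in ZT6 of series 1 and ZT10 of series 2 and above 0 in both ZT22 livers. Plin1 and Aqp7 were each above 0 both inside and outside these 4 livers. Fabp4 (16 to 36.5 rpbp) and Lipe (4.68 to 11.6 rpbp), which are not restricted to adipocytes, were present throughout. Fabp4 was highest at ZT10 of series 2, but was also at 34.0 rpbp in ZT14 of series 1, outside the 4 livers. The part of adipocyte RNA in the values of Cidec and Plin4 was not tested.

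**Figure D4:**
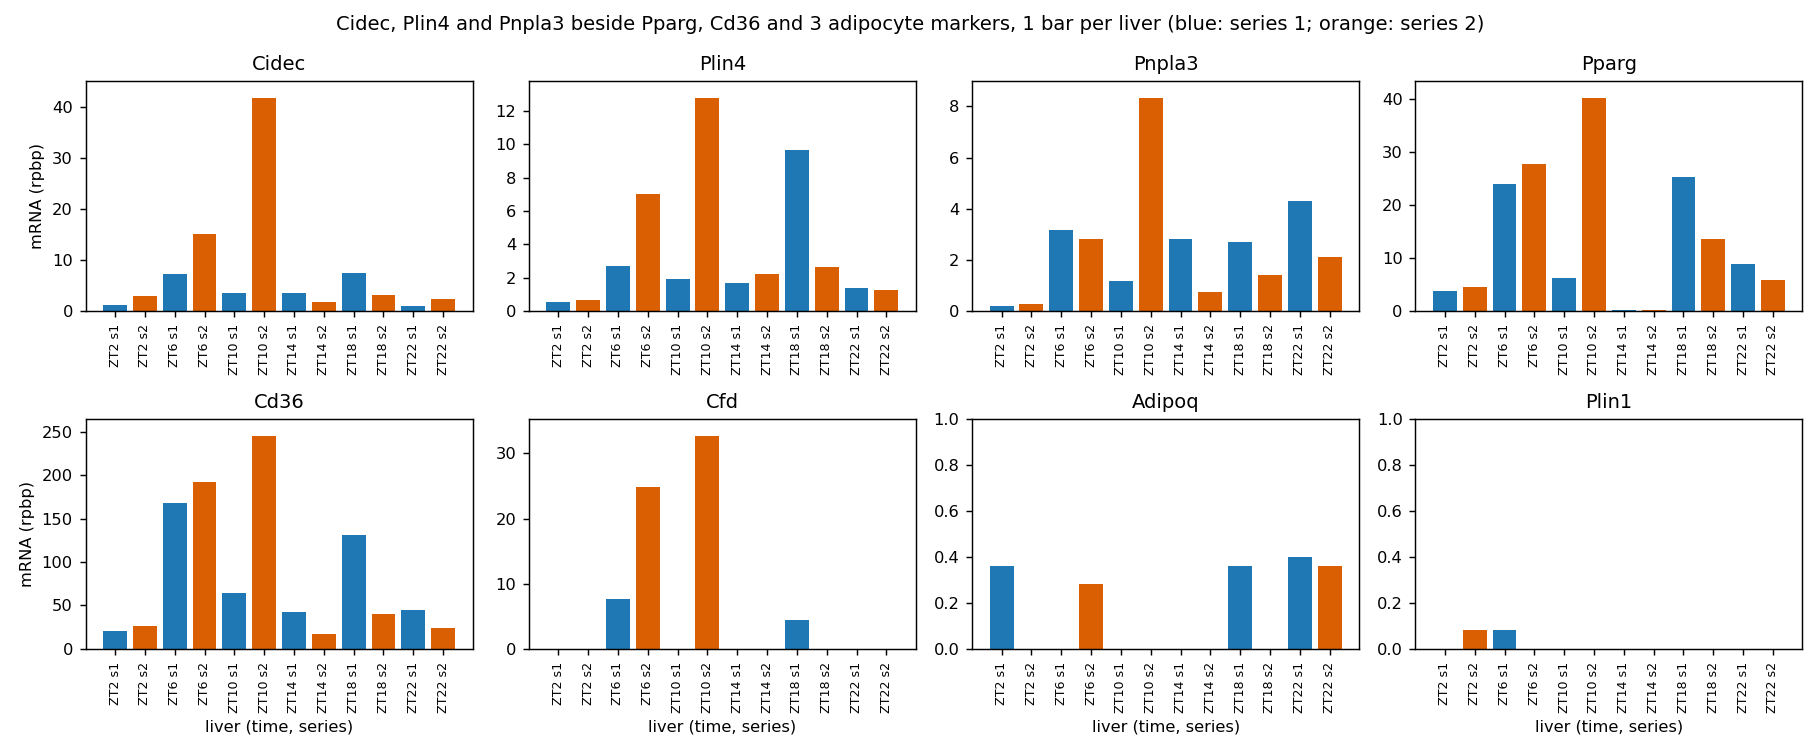
Signal (rpbp) of Cidec, Plin4 and Pnpla3 beside Pparg, Cd36 and the adipocyte markers Cfd, Adipoq and Plin1, with 1 bar per liver labeled by zeitgeber time and series (s1, s2). Cidec, Plin4, Pparg, Cd36 and Cfd share their 4 highest livers, while Adipoq and Plin1 do not exceed 0.40 rpbp.

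For each rhythmic member, the 3 expressed genes with the most similar course were listed by Pearson's r of log2(rpbp + 1) over the 12 livers, among genes with a mean of at least 8 rpbp. Plin5 was closest to Prkar2a (r = 0.93), which encodes a regulatory subunit of protein kinase A, to Slc45a3 (0.89) and to Ablim3 (0.88). Pnpla2 was closest to svct2 (0.96) and Slc23a2 (0.95), which are 2 rows for the same vitamin C transporter, and to Hmgb1 (0.94), a chromatin protein. Dgat2 was closest to Gamt (0.98), which makes creatine, to Ctage5 (0.98) and to the transcript AK192544 (0.97). Ctage5 was listed here as another symbol of Mia2, a VLDL assembly gene given below. These values were the highest of 8952 genes and are descriptions.

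Genes of the same pathways outside the 10 were described from lists of 94 genes, chosen with earlier results of these data known. Of the 94, 91 were in the table and 80 were expressed. In all 20 of the 80 were rhythmic, against 19.1% of expressed genes, and 10 of these also had an adjusted permutation p under 0.05, against 4.81% of expressed genes. Of the 20, 10 had a phase between ZT8 and ZT12, as did 23.8% of all 1948 rhythmic genes. That window lies around the phase of Dgat2, so counts in it are descriptions. Of the other triglyceride synthesis genes 5 of 16 were rhythmic, and 4 of them peaked between ZT8 and ZT12, near Dgat2 (10.9 hr). These were Dgat1, the sister enzyme of Dgat2 (F24 of 0.78, phase 9.32 hr), Gpat4 (0.70, 10.9 hr), which adds the initial acyl chain to glycerol phosphate, and the phosphatidate phosphatases Lpin2 (0.72, 10.6 hr) and Lpin1 (0.56, 10.5 hr). The fitted peak was 1.42-fold above the trough for Dgat1, 1.72-fold for Gpat4, 3.85-fold for Lpin2 and 8.08-fold for Lpin1.

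Of the other lipases and cofactors 5 of 16 were rhythmic (19.1% of expressed genes were). Pnpla7, a lysophospholipase (F24 of 0.93, phase 2.92 hr), and Lpl, lipoprotein lipase (0.65, 2.15 hr), peaked earlier in the light than Pnpla2. Abhd6, a monoacylglycerol hydrolase like Mgll, peaked at 11.1 hr (F24 of 0.68) and Ddhd1 at about ZT22 (0.64). Abhd5, a protein that activates Pnpla2, was singled out after its values were seen and was not called rhythmic (F24 of 0.35, permutation test, adjusted p = 0.324), but passed the limma test over the 6 time points (adjusted p = 0.00739). Its mean was 48.6 rpbp ± 3.71 at ZT2 and at most 28.6 rpbp at the other times (SD, n = 2).

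Of the other droplet proteins 4 of 16 were rhythmic, which is near the 19.1% of expressed genes. Plin3, the perilipin found in most tissues, had an F24 of 0.70 and a phase of 4.73 hr, which is in the light, while the phase of Plin5 is in the dark. Vps13c (0.66, 0.41 hr), Ubxn8 (0.60, 7.38 hr) and Fitm2 (0.55, 9.91 hr), which helps droplets bud from the endoplasmic reticulum, were the others. Of 10 expressed VLDL assembly genes 3 were rhythmic, Pla2g12b (0.83, 23.1 hr), Sar1b (0.77, 11.4 hr) and Mia2 (0.59, 11.8 hr). Mia2 passed the amplitude minimum of 1.5 narrowly, at 1.5001. None of 9 fatty acid uptake and binding genes met the whole rule for rhythmic genes, and some passed on p and F24 but not on amplitude. Of the 9, 6 had a limma adjusted p under 0.05 over the 6 time points, against 20.4% of expressed genes. Of 13 lipid regulators 3 were rhythmic, which is also near the share of expressed genes: Foxo1 (0.79, 11.4 hr), a forkhead factor restrained by insulin, Ppard (0.79, 21.1 hr) and Insig2 (0.57, 20.7 hr).

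**Figure D5:**
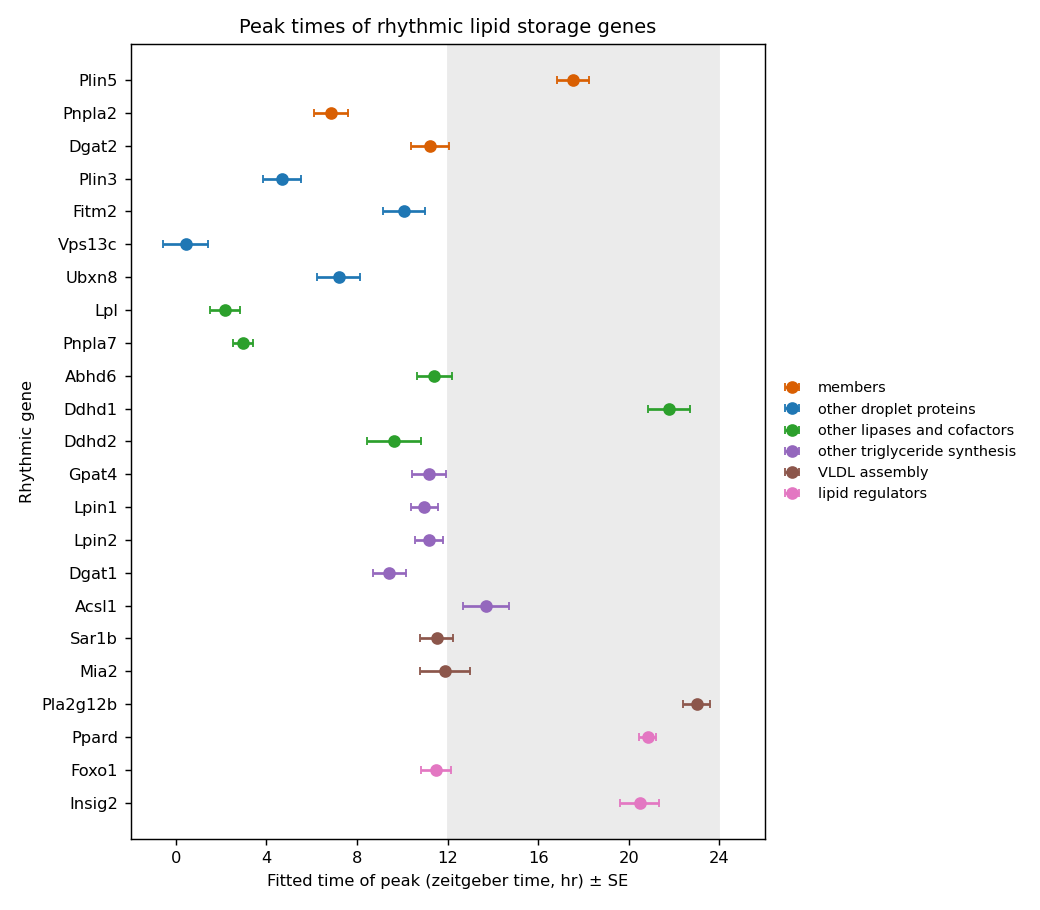
Fitted time of the peak (zeitgeber time, hr) with its SE from the limma cosine fit for the 3 rhythmic members and the 20 rhythmic genes of the other lipid storage lists, colored by list, with darkness in grey. Dgat2 and 4 of the 5 rhythmic triglyceride synthesis genes stand between ZT8 and ZT12, and Plin5 stands alone near 17.5 hr.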

How the data were processed

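Polyadenylated liver RNA was sequenced from 12 mice. The submitters' processing notes name CASAVA 1.8, TopHat and mm9. The deposited signal is exon coverage, without strand, divided by exon length and scaled by the authors to 10000000 uniquely mapped sequences. Every value was taken times 4 here, since the study's criteria for rhythmic genes, used in the report, are set for 40000000. The files give no read counts per gene, the study's table of sequences per library was not used here, and no counting interval is given. Columns of the authors' own F24 fraction, phase and p-value, deposited beside the signal, were not used. Columns named ZT20 were taken as the ZT22 samples, since the labels hold no ZT20 sample.

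F24 and its p were computed from 10000 permutations (seed 1, numpy 2.4.6), and p-values were adjusted by Benjamini-Hochberg over all 10198 expressed genes. Peak-to-trough differences came from limma 3.58.1 (R 4.3.3, trend) on log2(rpbp + 1). The scripts were tested on simulated data. Each library was made from a different liver. The permutation p compares a gene with its own values reordered over the times, and holds no separate measure of spread within a time point. The residual of the limma cosine test also includes departure from the cosine. Only the limma test with the time points as a factor measures the spread between livers of the same time. Members, lists and motifs were chosen with earlier results of these data known. Named genes were all members, up to 4 rhythmic genes with the highest F24 in each other list, the 3 genes most like each rhythmic member, and overlapping neighbors. Pparg, Cd36, Cfd, Abhd5 and Hbb-b1 were named outside this rule, after their values were seen, and other marker and clock genes as checks. Efcab4a was named as the nearest gene past the end of Pnpla2, which it does not overlap. Markers of red blood cells (sum of 3 in the table, 295.0 to 856.8 rpbp), stellate cells (229.0 to 290.5), endothelial cells (215.5 to 257.2), cholangiocytes (64.7 to 230.2) and lymphocytes (0.92 to 5.80) were also summed, and none of 5 pancreas markers was in the table. An older symbol first tied to Ubxn8 belongs to Faf2, and both were kept in the droplet list. Gene positions are from GENCODE M1 on mm9 and promoters from RefSeq on GRCm38.p6. Alternatives covered the minimum, scaling, log scale, adjustment, limma tests, amplitude, series block and left-out libraries.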

Additional observations from a re-analysis of the deposited data

How the results depend on the processing

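Each time point had 2 livers, which limits every call. The 3 rhythmic members, Plin5, Pnpla2 and Dgat2, were called in all 12 fits with 1 library left out (lowest and highest count 3), and also under a minimum of 16 rpbp, no minimum, median-of-ratios size factors, F24 on either log scale and amplitudes from time-point means. Those omissions gave 1592 to 1997 rhythmic genes overall and 16 to 23 in the other lipid lists. Adjusting the permutation p left 491 genes, 1 member and 10 list genes. The strong criteria left 805 genes, 2 members and 10 list genes. The limma cosine test with the same minimums left 875 genes, 3 members and 13 list genes, and the limma test over 6 time points called 2076 genes, 4 members and 38 list genes. Series 2 alone (without replicate 1) gave 360 genes, 0 members and 6 list genes, and series 1 alone 284 genes, 1 member (Plin5) and 0 list genes, where the smallest p that 720 orders allow is 0.0167. Without both ZT10 livers, an alternative added after the data were seen like that without both ZT2 livers, 1302 genes, 2 members and 13 list genes were called. Without both ZT2 livers the counts were 1526, 3 and 20.

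Deviations from the time-point means correlated between -0.15 and 0.21 over the 15 pairs of libraries within a series, with 2 above 0.1. With 2 livers per time point, the deviations of either series mirror those of the other, so both give the same 15 values. What the libraries of a series share beyond a number was not tested. With the mean of each series removed as a replicate block, 2118 genes, 3 members and 20 list genes were called. The limma cosine test with the block gave 689 genes, 2 members (not Dgat2, adjusted p = 0.0512) and 12 list genes, and the limma test over 6 time points with the block gave 1706 genes, 3 members and 32 list genes. The cause of these differences was not tested.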
